A study of Homo sapiens with 4 samples.

Results

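Laminins and the proteins that anchor hemidesmosomes were examined in Ca9-22 cells after knockdown of KPNA4. The genes were LAMA3, LAMB3, LAMA5, LAMB1, LAMC1, COL17A1, COL7A1, DST and CD151, chosen by name for their function. All 9 had a probe on the array, with 11 probes in all, of 27708 genes and 34127 gene probes. Ca9-22 is an established gingival squamous cell carcinoma line. The 2 control cultures received a negative control and the 2 knockdown cultures were silenced for KPNA4, which encodes a nuclear import receptor. Both groups were collected 3 days after transfection of siRNA, per the labels. The paper instead names short hairpin RNA for the cells of its expression profile, and its methods describe delivery by virus. The reagent behind these arrays is thus not settled. The labels give the cultures as replicates 1 and 2 and do not say how separate they were. RNA came from whole cultures, in which fewer cells of a kind and less RNA per cell cannot be told apart. Each culture was read on 1 Agilent array with 1 dye, and the arrays shared a slide.

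A basement membrane separates a stratified epithelium from the tissue under it. Laminins are trimers of an alpha, a beta and a gamma chain, which are secreted and form its sheet together with type IV collagen, nidogen and perlecan. Basal cells hold on to this sheet through hemidesmosomes, plaques in which the integrin of ITGA6 and ITGB4 binds laminin outside the cell with type XVII collagen and the tetraspanin CD151 beside it, and plakins such as dystonin, the product of DST, bind keratin filaments inside it. Type VII collagen forms the anchoring fibrils below. In squamous epithelium this adhesion is a trait of the basal layer.

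The cells carried epithelial markers, with keratins of squamous epithelium among them. All 8 epithelial markers, among them KRT5, KRT14 and CDH1, were well above background on all 4 arrays. The log2 of their summed level relative to the 75th percentile of the array was 8.08 and 8.07 in control and 8.06 and 8.0 in knockdown cells, a sum that SFN dominates at 7.51 and 7.51 against 7.28 and 7.19. Single markers differed more and in both directions. KRT6A went from -5.44 and -5.39 to 1.51 and 1.53, KRT17 from 1.16 and 1.24 to 2.57 and 2.6 and CDH1 from 0.94 and 0.75 to 1.99 and 2.03, while EPCAM went from 5.53 and 5.52 to 5.03 and 5.0. Of 6 fibroblast markers, 3 were well above background on all arrays, and their summed level was -2.80 and -2.75 in control and -1.60 and -1.53 in knockdown cells. Most of that sum was COL1A1, at -4.53 and -4.42 in control and -2.93 and -2.77 in knockdown cells, and COL1A2, at -3.75 and -3.70 against -2.48 and -2.49. LUM fell from -7.00 and -7.15 in control to -9.66 and -9.65 in knockdown cells, where it was not well above background. PDGFRB was at -7.29 and -7.16 against -6.50 and -6.84, and the brighter DCN probe at -6.73 and -7.02 against -7.22 and -6.73. COL3A1 was too dim on each of the 4 arrays to pass as well above background. Of 4 leukocyte markers 2 were, with sums of 2.08 and 2.06 in control and 2.63 and 2.55 in knockdown cells that were nearly all CD14, at 2.05 and 2.03 against 2.62 and 2.54. CD3E was at -6.0 and -5.73 in control and -7.48 and -7.21 in knockdown cells. Of 4 endothelial markers 2 were well above background on all arrays, with sums of -3.45 and -3.36 against -3.86 and -3.93. The part of these levels in the results below was not tested. KPNA4 itself had log2 values of 4.02 and 4.03 in control and 2.36 and 2.05 in knockdown cells, which is a difference of -1.82 (standard error 0.12) with a limma adjusted p of 0.00183.

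The members fell into 3 behaviors. LAMC1 and LAMA5 rose after KPNA4 knockdown, COL17A1 and CD151 fell, and LAMA3, LAMB3, LAMB1, COL7A1 and DST did not pass the test. The 4 called genes make up a share of the 9 that is near the 49.8% of all 19552 tested genes past the same threshold, an adjusted p under 0.05. The groups did not overlap for 6 of the 9, beside 79.9% of all tested genes with a value on each array. None of the 9 reached a 2-fold difference of group means, which 8.9% of all tested genes did (5.41% higher, 3.49% lower). The changes were thus small, between -0.52 and 0.79 on the log2 scale, with a median of -0.012 beside -0.10 over all tested genes. Every member was well above background on all 4 arrays, so no value is a limit. Values below are log2 processed signals relative to the 75th percentile of the array, and they are compared between arrays for 1 probe at a time, since probes differ in brightness for the same amount of RNA.

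**Figure D1:**
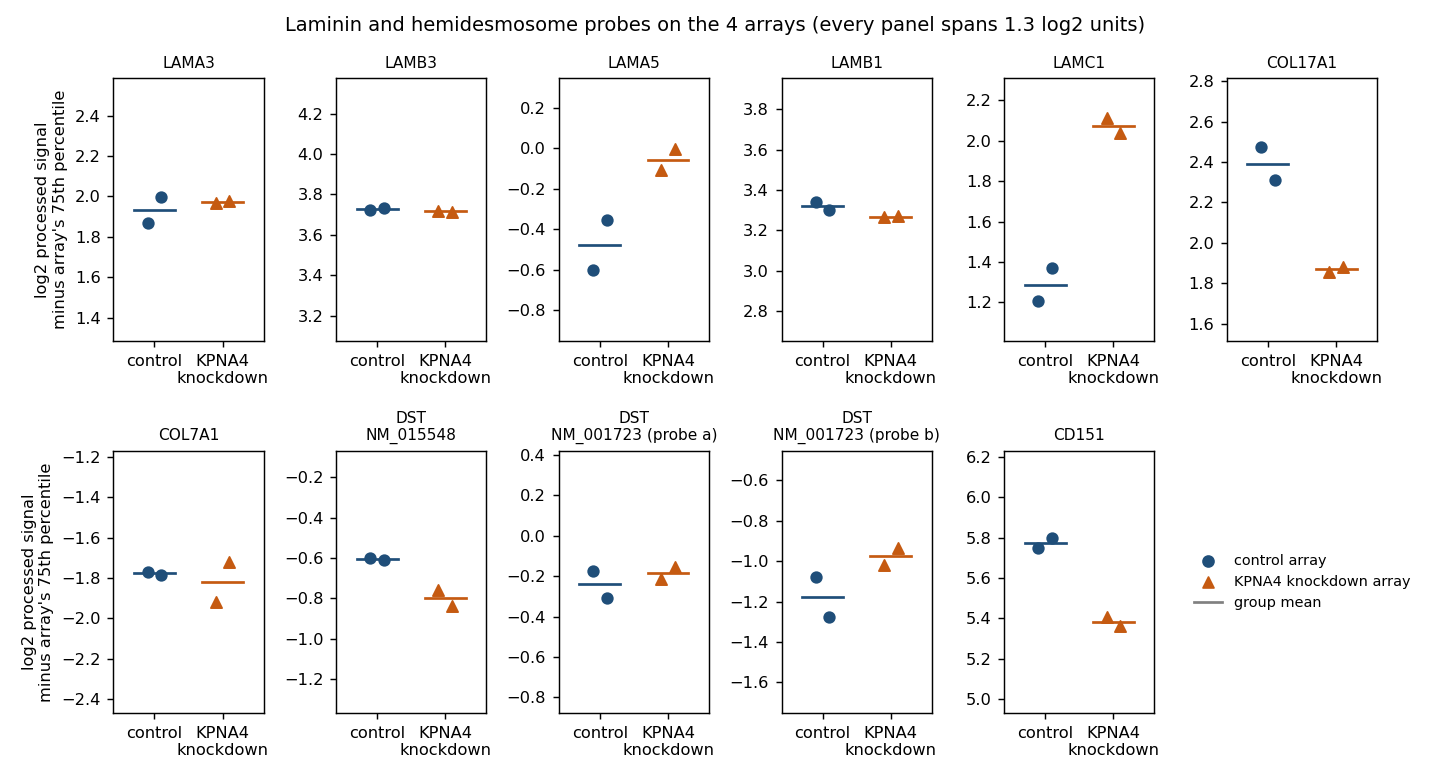
Log2 processed signal minus the array's 75th percentile (y axis) for each of the 11 probes of the 9 genes in control (circles) and KPNA4 knockdown arrays (triangles), with lines at group means and panels of the same height on the y axis. The LAMC1 and LAMA5 points lie higher and the COL17A1 and CD151 points lower in knockdown cells with no overlap, and the LAMA3 and COL7A1 points overlap; DST probe a is the brighter of the pair with the same accession.

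The upstream sequences of LAMC1 and LAMA5, the genes that rose, of COL17A1, which fell, and of LAMA3, which did not pass the test, are shown because they cover the 3 behaviors. Each is the 250 bases before the listed start of the gene in RefSeq, build GRCh38.p14, 5′ to 3′ on the gene's strand. Of the 9 genes, 8 had such an entry and CD151 is named only. Capitals mark matches on either strand to TGANTCA (AP-1), the NF-kB motif (GGG and CC with 5 bases between) or GGGCGG (Sp1), and matches to the last pair can overlap.
LAMC1, chr1:183023170-183023419, plus strand: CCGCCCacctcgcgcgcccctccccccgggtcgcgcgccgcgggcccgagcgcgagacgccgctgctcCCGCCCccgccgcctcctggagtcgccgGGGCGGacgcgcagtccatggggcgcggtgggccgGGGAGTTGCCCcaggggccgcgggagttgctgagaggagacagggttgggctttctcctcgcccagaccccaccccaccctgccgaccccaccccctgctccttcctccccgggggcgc
LAMA5, chr20:62367313-62367562, minus strand: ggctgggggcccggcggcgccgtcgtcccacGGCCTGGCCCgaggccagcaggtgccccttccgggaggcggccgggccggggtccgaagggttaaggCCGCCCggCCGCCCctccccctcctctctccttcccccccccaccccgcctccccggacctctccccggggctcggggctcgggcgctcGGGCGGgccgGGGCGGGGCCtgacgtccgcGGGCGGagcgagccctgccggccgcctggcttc
COL17A1, chr10:104085881-104086130, minus strand: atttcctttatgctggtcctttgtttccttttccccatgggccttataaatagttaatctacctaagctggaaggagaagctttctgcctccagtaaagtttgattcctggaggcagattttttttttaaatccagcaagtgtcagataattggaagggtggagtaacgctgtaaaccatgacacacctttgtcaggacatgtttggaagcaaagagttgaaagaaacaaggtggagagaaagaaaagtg
LAMA3, chr18:23872770-23873019, plus strand: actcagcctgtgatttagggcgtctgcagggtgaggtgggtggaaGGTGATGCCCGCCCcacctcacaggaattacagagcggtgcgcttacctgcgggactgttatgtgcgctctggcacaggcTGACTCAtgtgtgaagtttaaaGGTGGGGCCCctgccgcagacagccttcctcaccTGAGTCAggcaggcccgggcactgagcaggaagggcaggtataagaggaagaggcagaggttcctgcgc
LAMC1 held 3 Sp1 matches and LAMA5 held 5, in windows with a G and C content of 79.6% and 82.8%. COL17A1 held no match to any of the 3 motifs, at 40.4% G and C. LAMB1 and COL7A1, which did not pass the test, held 4 and 3 Sp1 matches at 70.4% and 60.8%. A DST start held 4 at 82.8%, and the other DST starts held none. LAMA3 held 2 AP-1 matches, and the only other AP-1 match was at 1 of 3 LAMB3 starts, so 2 of 12 member starts held one. Over all 35116 RefSeq starts, 6.57% of windows held an AP-1, 54.4% an NF-kB and 42.6% an Sp1 match, where 9 of 12 member starts held an NF-kB and 9 an Sp1 match. Overlapping LAMB3 windows share matches, and LAMB3 and DST have several starts each, so the 12 starts are not separate. All matches are of letters and not shown sites of binding.

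Among the laminin chains, LAMC1 had the largest change. It encodes the gamma chain found in most laminins outside the hemidesmosome. Its log2 values were 1.20 and 1.37 in control and 2.11 and 2.04 in knockdown cells. The groups did not overlap, with knockdown cells higher. The log2 fold change was 0.79, a 1.73-fold rise (standard error 0.08, 95% interval 0.56 to 1.02, limma adjusted p = 0.00495). The rise was called with each array left out in turn, and it was 1.29 with no scaling between arrays.

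LAMA5, the alpha chain that joins the LAMB1 and LAMC1 products in an epithelial basement membrane laminin, rose less. Its values were -0.60 and -0.36 in control and -0.11 and -0.01 in knockdown cells, and the control arrays were farther apart than the knockdown arrays. The log2 fold change was 0.42, or 1.34-fold (standard error 0.11, interval 0.12 to 0.72, limma adjusted p = 0.0374). This call did not hold without control 1 (0.30, limma adjusted p = 0.0682), without knockdown 1 (0.47, 0.0905) or without knockdown 2 (0.37, 0.149), nor without the filter on dim probes (limma adjusted p = 0.0838).

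LAMB1, the beta chain of the same trimer, did not pass the test. Its values were 3.34 and 3.30 in control and 3.27 and 3.27 in knockdown cells, for a log2 difference of -0.053 (interval -0.21 to 0.10) and a limma adjusted p of 0.467. The groups did not overlap, but that was true of 79.9% of all tested genes with a value on each array. The interval of LAMB1 lies below those of LAMA5 and LAMC1, and a difference between genes was not tested.

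LAMA3 and LAMB3 encode the alpha and the beta chain of the epithelial laminin to which hemidesmosomes attach. LAMA3 had values of 1.87 and 2.00 in control and 1.97 and 1.98 in knockdown cells, so the knockdown arrays lay between the control arrays (log2 fold change 0.038, interval -0.16 to 0.23, limma adjusted p = 0.681). LAMB3 had values of 3.72 and 3.73 in control and 3.72 and 3.71 in knockdown cells, a range of under 0.1 over all arrays, in which the groups just failed to overlap (log2 fold change -0.012, interval -0.16 to 0.14, limma adjusted p = 0.875). The intervals of both genes leave out a change as large as that of LAMC1, but they do not show equal levels. Both genes were higher by about the shift of all genes when the arrays were not scaled, at 0.54 and 0.49.

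Of the anchoring proteins, COL17A1 fell. It encodes type XVII collagen, a transmembrane protein of the hemidesmosome. Its values were 2.47 and 2.31 in control and 1.86 and 1.88 in knockdown cells. The groups did not overlap, with knockdown cells lower. The log2 fold change was -0.52, a 1.44-fold fall (standard error 0.08, interval -0.74 to -0.30, limma adjusted p = 0.0108). The call was lost, at nearly the same size, without knockdown 1 (-0.51, limma adjusted p = 0.0567) or knockdown 2 (-0.54, 0.0558).

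CD151, a tetraspanin that binds the laminin integrins, fell as well. Its values were 5.75 and 5.80 in control and 5.41 and 5.36 in knockdown cells, again without overlap. The log2 fold change was -0.39, a 1.31-fold fall (standard error 0.06, interval -0.55 to -0.23, limma adjusted p = 0.0108). It too was not called without knockdown 1 (-0.41, limma adjusted p = 0.0598) or knockdown 2 (-0.37, 0.0793).

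The falls of COL17A1 and CD151 were relative to the other genes on the array. The 75th percentile of the processed signal was 1466 and 1381 in control and 1938 and 2096 in knockdown cells, so brightness and group cannot be told apart. Before scaling, the COL17A1 signal was 8134 and 6848 in control and 7011 and 7723 in knockdown cells, which overlap, with a log2 difference of -0.020 and a limma adjusted p of 0.897. The unscaled CD151 signal was 78872 and 76791 in control and 82204 and 86158 in knockdown cells, and its log2 fold change turned to 0.11 (limma adjusted p = 0.389). Scaling to the 75th percentile moved the median change of all tested genes from 0.40 to -0.10. Relative to that median, COL17A1 was at -0.42, CD151 at -0.29, LAMC1 at 0.89 and LAMA5 at 0.52. Scaling shifts every gene alike, so these relative values are the same without it by construction. Under quantile normalization the log2 fold changes were 0.84 for LAMC1, 0.41 for LAMA5, -0.45 for COL17A1 and -0.21 for CD151, each past the threshold.

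**Figure D2:**
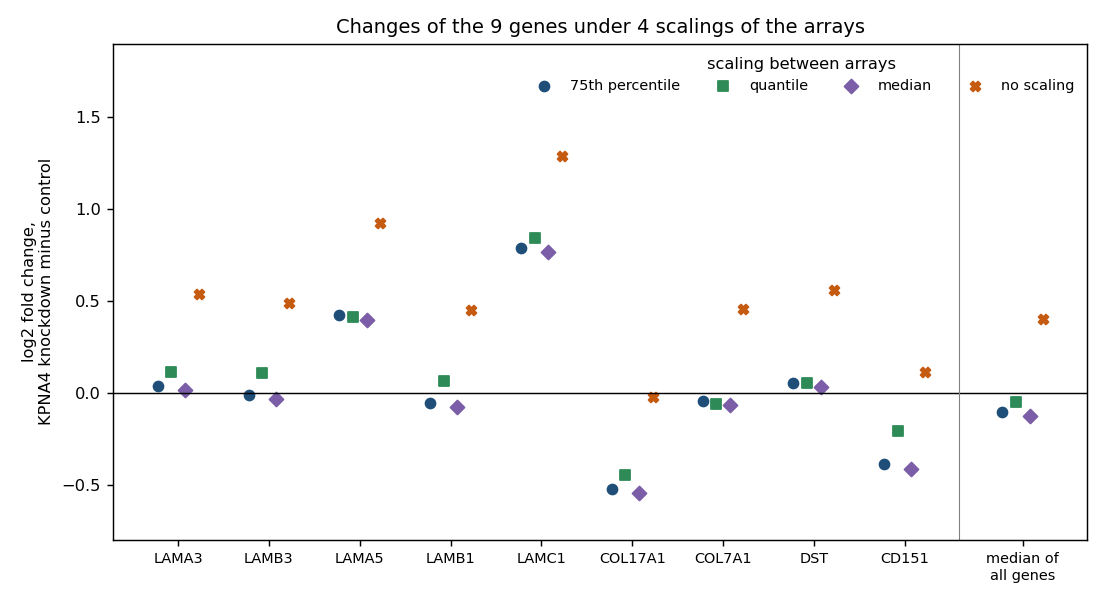
Log2 fold change of KPNA4 knockdown minus control (y axis) for the 9 genes under 4 scalings of the arrays (symbols), with the median of all tested genes at the right. LAMC1 and LAMA5 lie above 0 under all 4, CD151 lies below 0 under 3 and at 0.11 without scaling, and COL17A1 is at -0.020 without scaling.

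COL7A1, the type VII collagen of anchoring fibrils, did not pass the test. Its values were -1.77 and -1.79 in control and -1.92 and -1.72 in knockdown cells. The knockdown arrays lay on either side of the control arrays (log2 fold change -0.043, interval -0.29 to 0.20, limma adjusted p = 0.707).

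DST, which encodes the plakin that ties keratin filaments to the plaque, was read by 3 probes, none past the threshold in a fit over all 24200 probes that passed the filter, in which 48.4% were called and 28.3% were called lower. The probe of transcript NM_015548 had values of -0.60 and -0.61 in control and -0.76 and -0.84 in knockdown cells, or -0.20 on the log2 scale (interval -0.37 to -0.022), with a limma adjusted p of 0.0664. The brighter probe of NM_001723, the accession of the epithelial form, had -0.17 and -0.31 in control and -0.21 and -0.15 in knockdown cells, a change of 0.056 (interval -0.15 to 0.27, limma adjusted p = 0.576). The other probe of that transcript had -1.08 and -1.27 in control and -1.02 and -0.93 in knockdown cells, a change of 0.20 (interval -0.053 to 0.46, limma adjusted p = 0.144). The NM_015548 probe lay lower and the last probe higher in knockdown cells without overlap, so the probes of this gene did not share a direction, and their difference was not tested.

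**Figure D3:**
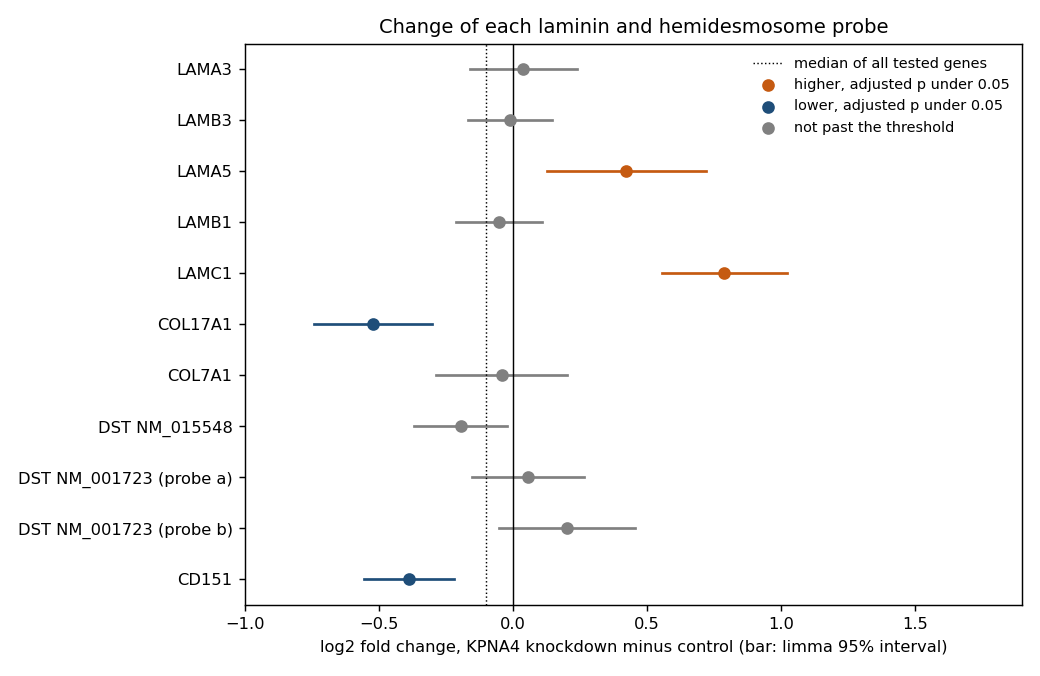
Log2 fold change of KPNA4 knockdown minus control (x axis) with its limma 95% interval for each of the 11 probes, with the median of all tested genes at -0.10 as a dotted line. The intervals, here from the fit over all probes, of LAMC1 and LAMA5 lie above 0, those of COL17A1, CD151 and the NM_015548 probe of DST below 0, and the other probes' intervals hold 0; the DST probe is not past the adjusted threshold.

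The gene whose profile over the 4 arrays was closest to that of LAMC1, after each gene's mean was subtracted, was DBP at a Euclidean distance of 0.00381, followed by NPW at 0.0342 and PLCB2 at 0.0414. With 4 arrays in 2 groups such distances mainly compare fold changes.

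The neighbors of the members in the basement membrane and the hemidesmosome were counted in 6 lists. They were written from general knowledge, but with earlier results of these data known. Of their 68 genes, 56 were tested, with 24 higher and 13 lower, where 20.3% of all tested genes were higher and 29.5% lower. Among tested genes with a symbol, 23.5% were higher and 27.7% lower. Without scaling between arrays 40 list genes were higher and 3 lower, beside 11257 higher and 1049 lower of all 19552 tested genes. The 3 lower list genes were ITGB4, FBLN1 and TSPAN4. Of the 6 other laminin chains, 5 were tested, and 2 were higher and none lower. These were LAMA1, with values of -0.29 and -0.24 in control and 1.02 and 0.99 in knockdown cells (log2 fold change 1.28, limma adjusted p = 0.000952), and LAMA2, with -3.97 and -4.12 against -2.91 and -2.89 (1.15, 0.00187). Both are alpha chains that pair with the LAMC1 product. LAMB2, LAMA4 and LAMC3 had log2 differences of 0.11, 0.38 and -0.15 and did not pass the test. The LAMA2 difference was 0.64 under the normexp correction fitted without spots in bright surroundings.

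Of 10 laminin receptor genes, 3 were higher and 4 lower. ITGB4, the integrin subunit found in hemidesmosomes, had values of 5.50 and 5.51 in control and 4.36 and 4.34 in knockdown cells, a 2.23-fold fall (log2 fold change -1.15, limma adjusted p = 0.00102). Its partner ITGA6 had 3.71 and 3.66 against 3.39 and 3.44 (-0.27, limma adjusted p = 0.0279). DAG1, which encodes the receptor dystroglycan, rose by 1.11 and BCAM, a laminin receptor of the immunoglobulin family, by 0.74. The BCAM call was lost without knockdown 1 (limma adjusted p = 0.0504) or knockdown 2 (0.0578), and its difference was 0.29 under the normexp correction fitted without spots in bright surroundings. ITGB1, the beta subunit of the other laminin integrins, was at -0.16 and did not pass the test. Without scaling between arrays ITGB4 was still lower, at -0.65. ITGA6, ITGA3 and ITGA7, all called lower in the reported fit, then turned to 0.23, 0.19 and 0.21 and did not pass the test. Under quantile normalization ITGA6 (-0.15, limma adjusted p = 0.107) and ITGA3 (-0.24, 0.0705) were not called, while ITGA7 (-0.33, 0.0209) was.

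Of 20 other basement membrane genes, 14 were tested, with 6 higher and 3 lower. NTN4, a laminin-related netrin, rose by 1.88 (limma adjusted p = 0.00129), and SPARC, a matrix protein that binds collagen, by 1.39. FBLN1, which encodes fibulin, fell by 1.18. COL4A1 and COL4A2, the main chains of type IV collagen, were at -0.24 and 0.032 and did not pass the test, while COL4A5 rose by 0.81 (limma adjusted p = 0.00272), COL4A6 by 0.38 (0.0142) and COL4A4 fell by 0.49 (0.0477). HSPG2, which encodes perlecan, fell by 0.43. Without scaling HSPG2 and COL4A4 turned to 0.076 and 0.013. Under quantile normalization COL4A4 was not called (-0.36, limma adjusted p = 0.129), while HSPG2 was (-0.35, 0.0333). LAMA2 and SPARC are also made by fibroblasts, and the levels of fibroblast markers went in both directions, as given above. The cultures were of an established carcinoma line, and the paper describes no fibroblasts grown with it. The marker levels are thus those of the line's own cultures, and their relation to these changes was not tested.

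All 7 plakin and keratin anchoring genes were called, 4 higher and 3 lower. KRT14 rose by 1.39 and KRT5 by 0.998, both keratins of basal cells, and PPL, a plakin of the upper layers, by 0.77. The plakin genes MACF1 and EVPL went the other way, at -0.66 and -0.46, as did FERMT1 at -0.25. Without scaling between arrays these 3 were at -0.15, 0.038 and 0.25 and did not pass the test. Under quantile normalization FERMT1 was not called (-0.12, limma adjusted p = 0.209), while MACF1 (-0.58, 0.0388) and EVPL (-0.43, 0.0169) were. Of 12 tetraspanins, 9 were tested, with 5 higher and 1 lower. UPK1B rose by 2.79 and TSPAN15 by 0.97, while TSPAN4 fell by 0.98 and was the only 1 of these 9 called lower. UPK1B was dim in control cells, at -4.57 and -4.27. Under the normexp correction fitted without spots in bright surroundings the UPK1B rise was 1.93 and the TSPAN15 rise 0.77. TSPAN14 and TSPAN1 were at -0.14 and -0.11 and did not pass the test. Of 13 genes that process collagens and laminins, 11 were tested, with 4 higher and 2 lower. Their largest changes were 0.54 for MMP14, a membrane protease, 0.52 for ADAM10, a sheddase, and 0.47 for P4HA2, a collagen hydroxylase. MMP14 was not called without knockdown 1 (limma adjusted p = 0.0710) or knockdown 2 (0.0709), nor P4HA2 without knockdown 1 (0.0561).

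**Figure D4:**
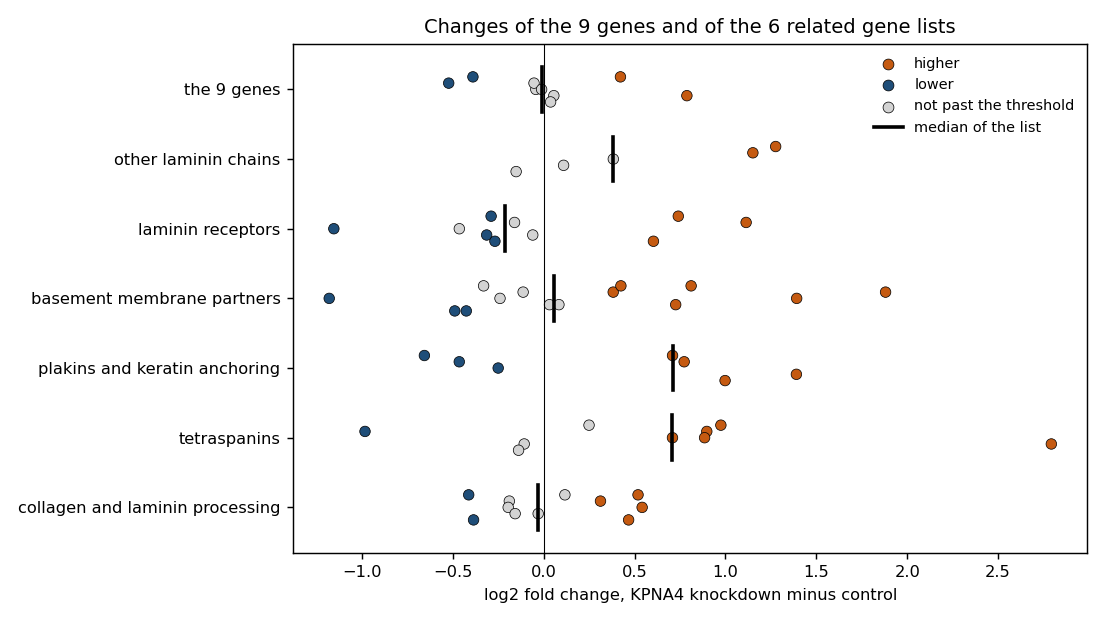
Log2 fold change of KPNA4 knockdown minus control (x axis) for the 9 genes and for each tested gene of the 6 lists (points, colored by the call), with a bar at each list's median. The 9 genes lie between -0.52 and 0.79, while ITGB4 is at -1.15 among the receptors, NTN4 at 1.88 among basement membrane genes and UPK1B at 2.79 among tetraspanins.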

How the data were processed

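Agilent arrays measured RNA from 2 control cultures and 2 with KPNA4 knockdown. The authors deposited, per the file headers, scanner output of Agilent Feature Extraction 11.0.1.1. The main unit is its background-corrected processed signal intensity; median and local background intensity served the normexp alternatives. They also deposited a table that was found to hold that signal as a ratio to each array's 75th percentile for 24209 probes. Here flagged and control spots were left out, spots were averaged per probe, and each array's 75th percentile of log2 signal was subtracted. Probes were kept if well above background on both arrays of a group (70.2% to 71.1% of probes per array were above it), and the brightest probe stood for a gene. Probes were named through a RefSeq table (GRCh38.p14), which matched 25771 of 34127; the array grid is on another build. Arrays have no read depth, and precision is limited by having 2 arrays a group. The comparison used limma 3.58.1 (R 4.3.3) with Benjamini-Hochberg adjustment over all genes. In a test on simulated data of 19552 genes for this comparison, the fit recovered 110 of 150 genes with log2 changes of 1 or more and 2 of 50 with 0.5, and 4 unchanged genes were called. The simulated changed genes were a far smaller share than the 49.8% called in the real data. The simulated counts therefore need not carry over to these data. Alternatives were other scalings, background corrections, filters, probe rules, priors, a replicate block, each array left out and a threshold of 0.01. The members and lists were chosen with earlier results of these data known. Named are the members, KPNA4, the 3 largest called changes per list among genes above background on all arrays, and the nearest profiles to the most changed member; other named genes were chosen after their values were seen. The limma p-values set each difference against the spread between these cultures, moderated over all genes.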

Additional observations from a re-analysis of the deposited data

How the results depend on the processing

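LAMC1 was higher under all 17 alternatives, between 0.59 and 1.29, and lost its call under the planned normexp correction (limma adjusted p = 0.651). With no scaling between arrays 7 members were called higher and 0 lower, 1 was at least 2-fold apart, their median was 0.49, 11257 genes were higher and 1049 lower, and 40 list genes were higher and 3 lower; LAMB3 (0.49), LAMB1 (0.45), COL7A1 (0.46) and CD151 (0.11) then changed sign. Under quantile normalization the members' median was 0.062, with LAMB3 at 0.11 and LAMB1 at 0.062, and 47.1% of called genes were higher, against 40.8% in the reported fit and 91.5% with no scaling. Planned normexp called 0 genes, 0 members and 0 list genes in either direction (limma; 1165 genes and 0 members at an unadjusted p under 0.05), with a members' median of -0.11, KPNA4 at -1.96 (adjusted p = 0.651, range over alternatives 3.828e-05 to 0.651), LAMA3 at -0.11 and COL7A1 at 0.28. On knockdown 2, 12 spots in bright surroundings moved its fitted background mean to -1022, against -6.61 to -3.46 on the other arrays. Fitted without them, an alternative chosen after seeing the data, the members' 4 calls were the same in number, LAMB3 was at 0.013, and 9120 genes were lower and 3743 higher, or 29.1% of the called. Without a filter on dim probes 1 member was higher and 6 list genes lower. At a threshold of 0.01, 1 member was higher and 0 lower, 2130 genes were higher and 2340 lower, and 3 list genes lower. With each array left out in turn 1 to 2 members were higher and 0 to 2 lower, their median was -0.026 to 0.043, 2148 to 3596 genes were higher and 2522 to 4748 lower, and 18 to 25 list genes were higher and 3 to 11 lower; an arm of 1 array was assumed to vary like the other. LAMA3 (-0.026 without control 1, range to 0.10), DST (-0.011 without control 2, range to 0.12) and COL7A1 (0.056 without knockdown 1, range from -0.14) changed sign. Apart from the bright spots and the fewer arrays, the cause was not tested. The replicate numbers name no shared source, and the arrays' deviations correlated at -0.03 across genes; with the replicate number as a block 2 members were higher and 2 lower, and 8 list genes were lower.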
